A study of Mus musculus with 12 samples.

Results

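The neurotrophin system of murine hepatoblastoma (HB) cells was followed through 6 genes of 45706 listed: the ligands Bdnf and Ntf3, the receptors Ngfr (p75), Ntrk2 (TrkB) and Ntrk3 (TrkC), and the sorting receptor Sort1 (sortilin). They were chosen by name because Ngfr was already known to be higher in sorted cells and lower in hypoxia in these same libraries. Their levels are therefore given as a description, with no test. All cells were BN1 cells, an immortalized HB line from a tumor driven by mutants of β-catenin and NRF2, with the genotype Cdkn2a KO in every group. They also carried EGFP under the Tie2 promoter (Tie2-EGFP), from stable clones that were selected in Geneticin and pooled, and the labels call every library EGFP+, the unsorted ones included. UN cells were unsorted and kept in normoxia at 21% oxygen. UH cells were unsorted and spent 2 days at 1% oxygen. For SN cells, the brightest EGFP cells were sorted after hypoxia and grown for about 10 days in normoxia. SH cells were sorted in the same way, and after that growth they went back to 1% oxygen for 2 days. Each group had 3 libraries, described in the study as independent, but whether they came from separate cultures is not stated, so p-values measure only the spread between these libraries, which may be technical. Because SN and SH cells had met hypoxia earlier and were then selected and expanded, the sort and that history cannot be told apart in any comparison of sorted with unsorted cells.

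Neurotrophins are secreted growth factors best known for the survival, wiring and plasticity of neurons. They are made as proforms, which prefer p75 paired with sortilin, and are cut by furin-type convertases in the cell or by plasmin and matrix metalloproteinases outside it into mature forms, which bind the Trk receptor tyrosine kinases: BDNF and NT-4 (Ntf5) bind TrkB, and NT-3 (Ntf3) binds TrkC. Trk receptors signal through Shc, Frs2 and Plcg adaptors toward growth and survival, whereas p75, a member of the tumor necrosis factor (TNF) receptor superfamily, signals through its own adaptors and can promote death or survival. In liver, p75 is known as a marker of activated hepatic stellate cells.

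Ngfr lies on chromosome 11 from 95568818 to 95587735 on the minus strand of GRCm38 and has 1 annotated transcript. Bdnf lies on chromosome 2 from 109674700 to 109727007 on the plus strand with 11 transcripts, all coding. Ntf3 lies on chromosome 6 from 126101412 to 126166910 (minus strand, 3 transcripts). Ntrk2 lies on chromosome 13 from 58806569 to 59133970 (plus strand, 10 transcripts, 7 of them coding). Ntrk3 lies on chromosome 7 from 78175959 to 78738012 (minus strand, 20 transcripts, 6 of them coding). Sort1 lies on chromosome 3 from 108284082 to 108361511 (plus strand, 3 transcripts, 2 of them coding). Ntrk2 and Ntrk3 are known to give full-length and kinase-lacking receptors, which a gene-level value cannot separate. Ntrk3 overlaps an antisense gene, Gm9885, that reached at most 0.504 TPM (a gene's share of the transcripts, corrected for length).

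Ngfr was lower in hypoxia in both populations and Bdnf was higher in hypoxia in unsorted cells, so the stretches before their first annotated start are shown side by side. Each is a window of 200 bases, from 250 to 51 bases before the start in RefSeq on GRCm38.p6, upstream of the annotated exons and read 5′ to 3′ on the gene's strand. Capitals mark ACGTG or GCGTG on either strand, the core letters that hypoxia-inducible factors are known to bind, with CACGT and CACGC being the same cores on the other strand.
Ngfr, chr11:95587749-95587948, minus strand: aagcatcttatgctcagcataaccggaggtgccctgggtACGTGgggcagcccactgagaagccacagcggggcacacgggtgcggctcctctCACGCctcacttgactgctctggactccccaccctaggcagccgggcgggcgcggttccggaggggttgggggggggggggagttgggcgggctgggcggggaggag
Bdnf start 1 of 7, chr2:109674450-109674649, plus strand: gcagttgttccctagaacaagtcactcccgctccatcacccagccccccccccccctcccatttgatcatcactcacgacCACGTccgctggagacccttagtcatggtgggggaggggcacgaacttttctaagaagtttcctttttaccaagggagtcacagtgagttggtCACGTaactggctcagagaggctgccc
The Ngfr window held 1 ACGTG and 1 GCGTG, and the Bdnf window held 2 ACGTG and no GCGTG. The windows of the other 6 Bdnf starts held no ACGTG, and 2 of them held GCGTG, so the window shown was the only one of Bdnf with ACGTG. Among all 32851 windows of the same length and placement in RefSeq, 12.9% held ACGTG, 22.6% held GCGTG and 31.6% held either. Of 11 windows for 4 members (Ngfr, Bdnf, Ntf3 and Ntrk2), 3 held ACGTG and 6 held either core. A match is a description of letters and not of a bound site.

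Values are TPM as deposited, which are corrected for transcript length and so allow levels to be compared between genes. Depth is unknown from TPM. Fold changes are differences of mean log2(TPM + 1) with the standard error (SE) from limma, which pooled the spread of all 4 groups, and they understate the change of genes at low TPM. In bulk RNA, fewer cells that express a gene and less RNA per cell cannot be told apart. The 4 comparisons share groups with each other and are not independent. Of the 6 genes, 4 passed a filter on low values, which required 0.1 TPM on average over all libraries. Ntf3 and Ntrk2 did not pass it.

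Before the results, the labels were held against the genes they should move. Tek, the gene for Tie2 itself, was higher in sorted cells, with a log2 fold change of 1.62 in SN vs UN (limma adjusted p = 1.8e-06) and 1.80 for SH vs UH (adjusted p = 5.91e-07), yet it reached no more than 3.29 TPM. The 7 endothelial markers, Tek included, summed to 0.488 to 0.680 TPM in UN and 0.249 to 0.84 TPM in UH cells. In sorted cells they summed to 2.36 to 3.06 TPM in SN and 4.685 to 5.28 TPM in SH, where Tek averaged 2.49 and 3.04 TPM. Of 10 known hypoxia targets, 9 were called higher with hypoxia in each population, the exception being Car9. Hepatocyte markers were mostly low: Alb averaged 2.51 TPM in UN and 0.212 TPM in SN cells, Hnf4a averaged 3.85 TPM in UN and at most 0.263 TPM in the other groups, while Krt18 averaged 79.6 to 128.0 TPM. Afp, a marker of hepatoblasts, went the other way and was called higher in sorted cells, at 1.83 and 9.20 TPM in UN and SN and 1.22 and 5.07 TPM in UH and SH cells. Krt8 was called lower in them, at 65.5 TPM in UN and 4.78 TPM in SN cells, and Foxa2 averaged 11.5 TPM in UN and 2.53 to 4.40 TPM in the other groups. Libraries correlated at 0.977 to 0.991 within groups and at 0.903 to 0.960 between groups (Pearson's r over the genes of a library pair, and genes are no replicates). UN replicate 1 and SH replicate 3 stood somewhat apart from the other libraries of their groups in several genes described here, and calls of pathway genes that rest on them are marked. Calls of markers were not checked by leaving out libraries.

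Ngfr, the p75 receptor that all neurotrophins can bind, was highest in sorted normoxic cells and lower in both hypoxic groups. Its TPM was 3.76, 2.42 and 2.28 in UN cells, 0.211, 0.302 and 0.114 in UH cells, 9.80, 11.1 and 15.4 in SN cells, and 0.769, 0.691 and 1.45 in SH cells. No library of a group overlapped those of another, where over all genes tested the libraries did not overlap for 51.1% in UH vs UN, 56.8% in SH vs SN, 49.0% in SN vs UN and 51.7% for SH vs UH. The order was SN above UN above SH above UH. The same order without overlap was found for 268 of the 18909 genes tested. Group means were 2.82 ± 0.817 in UN, 0.209 ± 0.0942 in UH, 12.1 ± 2.93 in SN and 0.970 ± 0.418 in SH cells (SD, n = 3). Ngfr was thus above 38.3% of tested genes in UN, 15.3% in UH, 58.6% in SN and 28.3% in SH cells.

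In hypoxia the mean TPM of Ngfr was 13.5-fold lower in unsorted and 12.5-fold lower in sorted cells, and the sorted cells held 4.28-fold more than unsorted cells in normoxia and 4.64-fold more in hypoxia. The UH libraries held 0.114 to 0.302 TPM, a level whose counting error is unknown, so the 13.5-fold and 4.64-fold values are imprecise. On the log2(TPM + 1) scale the differences were −1.64 in UH vs UN, −2.73 in SH vs SN, 1.77 in SN vs UN and 0.69 for SH vs UH, each with an SE of 0.214, the last under 2-fold on that scale. With an added 0.1 in place of 1 they were −3.25, −3.55, 2.07 and 1.77. The gap between the hypoxia responses, −1.09 (SE 0.302), was −0.30 with an added 0.1, and the ratios of mean TPM were nearly equal. Every SH library had less Ngfr than every UN library. Mitochondrially encoded transcripts followed the same order of groups, with 5.18% to 7.55% of TPM in UN, 1.67% to 2.53% in UH, 7.64% to 8.38% in SN and 2.66% to 4.68% in SH cells. The 5 cholangiocyte and progenitor markers, led by Spp1, summed to 2755 to 3134 TPM in UN, 1118 to 1177 in UH, 4138 to 4749 in SN and 877.3 to 1056 in SH cells, with Epcam at 0 in SN and SH cells. Spp1 made up most of that sum in every group, at 640.6 TPM on average in UH and 929.7 to 4485 TPM in the other groups, and other genes of the list did not all follow it. Krt19 was called higher with hypoxia, at 62.0 and 481.2 TPM in UN and UH and 0.837 and 4.87 TPM in SN and SH cells, and so lower in sorted cells, whereas Krt7 was called higher in SH than in SN cells (12.7 and 5.48 TPM) and higher in sorted cells. The part of either in the Ngfr values was not tested. Schwann cells and neural crest are known to carry p75, and their 8 markers summed to 3.61 to 17.4 TPM over all libraries. Sox10 was at 0 in every UN and UH library and averaged 0.0102 TPM in SN and 0.0545 TPM in SH cells. Of 6 of these markers tested, only Mbp was called in SH vs SN and in SH vs UH, higher in both. It averaged 3.30, 4.37, 4.39 and 12.2 TPM in UN, UH, SN and SH cells. The part of such cells in the Ngfr values was not tested.

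**Figure D1:**
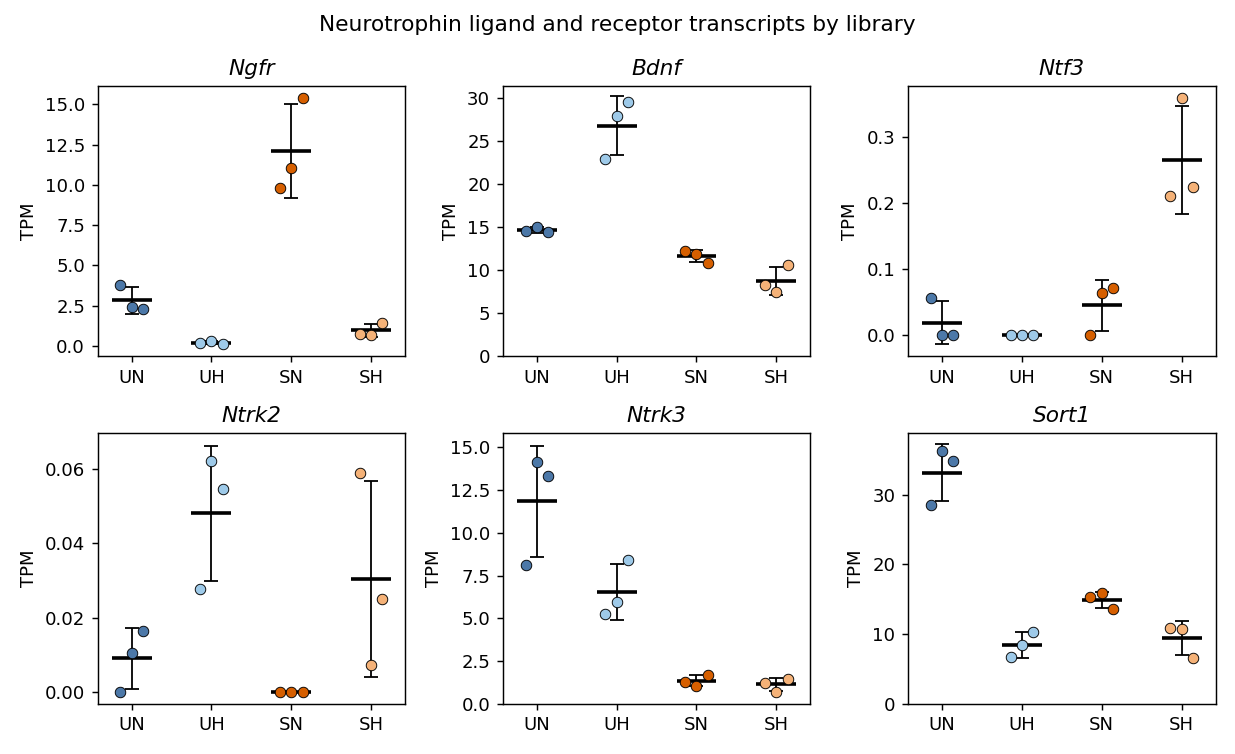
TPM of the 6 genes (y axis, linear, a separate scale for each gene) in the 4 groups (x axis), with a point for each library, a bar at the mean and error bars of 1 SD (n = 3). Ngfr was highest in SN cells at 9.80 to 15.4 TPM, Bdnf was highest in UH cells at 22.9 to 29.5 TPM, Ntrk3 and Sort1 were highest in UN cells, and Ntf3 and Ntrk2 stayed below 0.36 TPM in every library.

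Bdnf, a ligand of TrkB and p75, was higher with hypoxia in unsorted cells and lower in sorted cells. It was at 14.5, 15.0 and 14.4 TPM in UN cells and at 22.9, 27.9 and 29.5 TPM in UH cells. In SN cells it was at 12.2, 11.9 and 10.8 TPM, and in SH cells at 8.22, 7.45 and 10.6 TPM. Every UH library was above every UN library, and every SH library was below every SN library, a pattern held by 0.524% of tested genes. The share with both directions turned, lower in UH and higher in SH cells, is not given. The order was UH above UN above SN above SH, with no overlap between neighbours, and the share of all genes with this order was not counted. The gap between SN and SH was narrow, with SN replicate 3 at 10.8 TPM and SH replicate 3 at 10.6 TPM. Dividing these libraries by their median-of-ratios factors, 1.03 and 0.952, reverses their order. Means were 14.6 ± 0.322, 26.8 ± 3.45, 11.6 ± 0.739 and 8.75 ± 1.62 TPM in UN, UH, SN and SH cells (SD, n = 3). The log2 differences were 0.82 in UH vs UN, −0.39 in SH vs SN, −0.31 in SN vs UN and −1.51 for SH vs UH (SE 0.139 each), and the hypoxia responses differed by −1.21 (SE 0.197). Over all genes tested, the median log2 change in UH vs UN was −0.19, and with libraries scaled by the median of ratios the difference of Bdnf there was 1.16. With quantile normalization the difference in SN vs UN was −0.15.

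Ntf3, which encodes NT-3, the ligand of TrkC, was barely present. It was listed at 0.0560 TPM in UN replicate 1 and at 0 in the other UN libraries and in all UH libraries. SN libraries had 0, 0.0635 and 0.0714 TPM, and SH libraries had 0.211, 0.359 and 0.225 TPM. All SH libraries lay above all others, at a level whose counting error is unknown, so no fold is given.

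Ntf5, which encodes NT-4, another ligand of TrkB and not among the 6 genes, was higher in hypoxia by limma in both populations, from 1.97 to 5.01 TPM in unsorted cells (log2 1.03, SE 0.246, adjusted p = 0.00466) and from 0.673 to 4.27 TPM in sorted cells (log2 1.60, SE 0.246, adjusted p = 0.000324). The unsorted call was lost without UN replicate 1 (0.85), UH replicate 1 (0.99) or UH replicate 2 (0.95).

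Ntrk3, the TrkC receptor, was far lower in sorted than in unsorted cells. It was at 8.13, 14.1 and 13.3 TPM in UN cells, 5.27, 5.94 and 8.42 TPM in UH cells, 1.28, 1.05 and 1.69 TPM in SN cells, and 1.23, 0.712 and 1.45 TPM in SH cells. Every sorted library was below every unsorted library, whereas UN overlapped UH and SN overlapped SH. Means were 11.9 ± 3.25, 6.54 ± 1.66, 1.34 ± 0.326 and 1.13 ± 0.378 TPM in UN, UH, SN and SH cells (SD, n = 3), so unsorted cells had 8.84-fold more in normoxia and 5.79-fold more in hypoxia. The log2 differences were −2.43 in SN vs UN and −1.82 for SH vs UH, and smaller with hypoxia, at −0.76 in UH vs UN and −0.14 for SH vs SN (SE 0.235 each). The hypoxia values moved with the scaling of the libraries: UH vs UN was −0.44 with median-of-ratios scaling, and SH vs SN was −0.47 with quantile normalization.

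Ntrk2, the TrkB receptor for BDNF, was at or near 0 throughout. It was listed at 0, 0.0104 and 0.0165 TPM in UN, at 0.0276, 0.0622 and 0.0548 TPM in UH, at 0 in all 3 SN libraries and at 0.0590, 0.00714 and 0.0251 TPM in SH cells. The highest Ntrk2 value was thus far under the lowest Bdnf value of 7.45 TPM.

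Sort1, which encodes sortilin, the co-receptor of p75 for proneurotrophins and a carrier of BDNF inside the cell, was highest in unsorted normoxic cells. It was at 28.5, 36.2 and 34.8 TPM in UN, 6.65, 8.42 and 10.3 TPM in UH, 15.3, 15.8 and 13.6 TPM in SN, and 10.8, 10.8 and 6.60 TPM in SH cells. The UN libraries were above all others and the SN libraries above both hypoxic groups, while UH and SH overlapped. Over all genes tested, libraries did not overlap for 51.1% in UH vs UN, 56.8% in SH vs SN and 49.0% in SN vs UN. Means were 33.1 ± 4.10, 8.47 ± 1.85, 14.9 ± 1.19 and 9.39 ± 2.42 TPM in UN, UH, SN and SH cells (SD, n = 3). Hypoxia went with a 3.91-fold lower mean in unsorted and a 1.58-fold lower mean in sorted cells, and SN cells had 2.23-fold less than UN cells. The log2 differences were −1.86 in UH vs UN, −0.64 in SH vs SN, −1.10 in SN vs UN and 0.12 for SH vs UH (SE 0.195 each), and the last changed sign with other scalings of the libraries (−0.08 and −0.03). The hypoxia responses of the populations differed by 1.22 (SE 0.276).

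Ngfr and Sort1 were both lower in hypoxia, and in normoxia the sorted cells had more Ngfr and less Sort1. The ratio of Ngfr to Sort1 TPM was 0.0882 ± 0.0380 in UN, 0.0262 ± 0.0133 in UH, 0.826 ± 0.270 in SN and 0.118 ± 0.0880 in SH cells (SD, n = 3), and every SN library was above all libraries of the other groups. The 12 stellate cell and fibroblast markers summed to 1073 to 4603 TPM in UN, 4273 to 6233 in UH, 203.4 to 212.6 in SN and 58.8 to 78.9 in SH cells, lower in sorted cells as Ntrk3 was in both comparisons and Sort1 in normoxia. Ngfr went the other way with the sort, at 12.1 TPM in SN against 2.82 TPM in UN cells and 0.970 TPM in SH against 0.209 TPM in UH cells. From SN to SH cells both the sum and Ngfr were lower, whereas from UN to UH cells Ngfr was lower and the sum was not. In unsorted cells that sum was mainly Col1a1, Col3a1 and Acta2. Of 10 stellate cell and fibroblast markers tested, 5 were called lower and none higher in SN vs UN (7.57% and 3.2% of all genes). SH vs UH had 6 lower and 1 higher (5.35% and 7.65% of all genes). UH vs UN had 3 lower and 3 higher (11.8% and 5.46% of all genes). Des was the gene called higher in SH vs UH (8.89 against 1.03 TPM), Pdgfrb and Dcn were not called in SN vs UN, and Pdgfra, Pdgfrb and Dcn were the genes called lower in UH vs UN. Lrat, a defining stellate cell gene, was at 0 in every group, and Lum was at 0 in UH and SN cells. Whether such cells were present, and their part in the Ngfr, Ntrk3 and Sort1 values, was not tested.

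**Figure D2:**
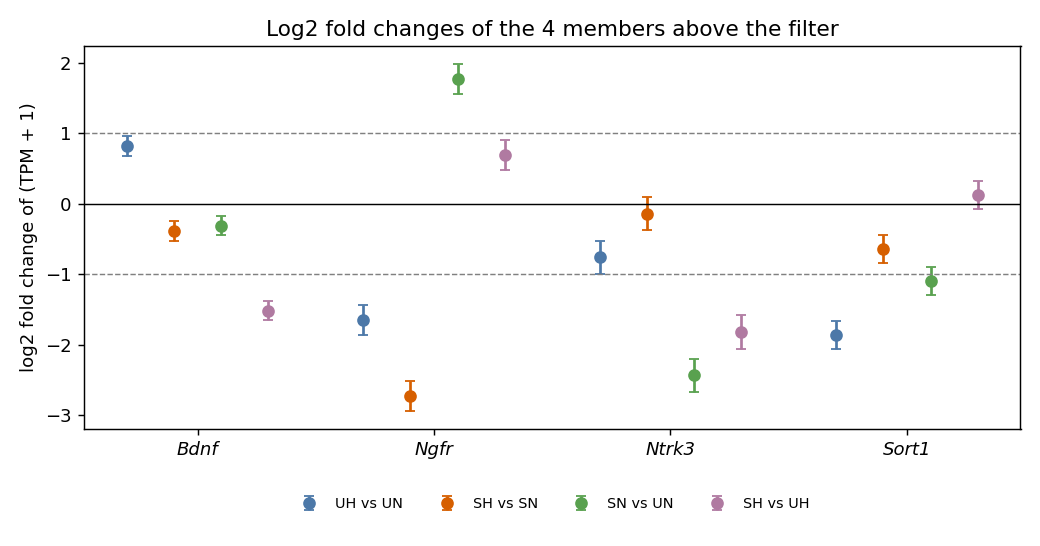
Log2 fold changes of TPM + 1 (y axis) of the 4 genes above the filter (x axis) in the 4 comparisons (colors), with error bars of 1 SE from limma and dashed lines at 2-fold. Ngfr lay at −1.64 and −2.73 with hypoxia, Bdnf at 0.82 in unsorted and −0.39 in sorted cells, and Ntrk3 at −2.43 and −1.82 in sorted against unsorted cells.

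Of 65 other genes of the pathway, taken from lists of a ligand, receptors, p75 adaptors, processing enzymes, Trk signal transducers and related TNF receptors, 60 could be tested. In UH vs UN, 5 were called higher and 7 lower (adjusted p under 0.05 by limma and a change above 2-fold), where 17.2% of all genes were called, 5.46% higher and 11.8% lower. SH vs SN had 4 higher and 2 lower, against 12.5% of all genes (7.47% and 5.0%), and 10 pathway genes were called there with an added 0.1. SN vs UN had 3 higher and 9 lower, against 10.8% (3.2% and 7.57%). SH vs UH had 4 higher and 7 lower, against 13.0% (7.65% and 5.35%). A difference of hypoxia responses between the populations was called for 7 of them, 3 with a higher and 4 with a lower log2 change in sorted cells, against 10.3% of all genes (8.08% and 2.18%), and for 11 without UN replicate 1. Dok5, at or near 0 in sorted cells, was among the 7. With median-of-ratios scaling, UH vs UN had 1566 higher and 1221 lower genes in all, against 1032 and 2222. The median log2 changes of the pathway genes were −0.25, −0.03, −0.19 and 0.10 in that order of comparisons, and those of all genes tested were −0.19, 0.03, −0.06 and 0.17. In none of the 4 comparisons were 40 of the 60 genes called, or 66.7%, near the 68.6% of all genes tested.

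Among enzymes that can cut neurotrophins or p75, Mmp7 and Mmp9 were lower with hypoxia and higher in sorted cells. Of 14 enzymes tested, 1 was higher and 2 lower in UH vs UN, 2 were lower in SH vs SN, and 2 were higher and 3 lower in each comparison of sorted with unsorted cells. Mmp7, a metalloproteinase known to cut proneurotrophins, was at 2.01 ± 0.331 TPM in UN, 0.441 ± 0.249 in UH, 23.7 ± 4.78 in SN and 3.29 ± 1.58 in SH cells (SD, n = 3). Its log2 changes were −1.07 in UH vs UN (limma adjusted p = 0.00579), −2.57 in SH vs SN (adjusted p = 1.98e-05), 3.02 in SN vs UN (adjusted p = 6.61e-06) and 1.52 for SH vs UH (adjusted p = 0.00078). The first was lost under other scalings (−0.90) and without UH replicate 3 (−0.95). Mmp9, which likewise cuts proneurotrophins, was at 28.2 ± 10.2, 2.41 ± 0.559, 119.1 ± 18.1 and 18.9 ± 4.23 TPM in UN, UH, SN and SH cells (SD, n = 3). It was lower in hypoxia by limma in unsorted (log2 −3.04, adjusted p = 3.17e-06) and sorted cells (−2.60, adjusted p = 1.67e-05) and higher with the sort in normoxia (2.10, adjusted p = 0.000103) and hypoxia (2.54, adjusted p = 1.71e-05). Both enzymes thus changed in the direction of Ngfr in each of the 4 comparisons, but Mmp7 was on average higher in SH than in UN cells, unlike Ngfr. The share of all genes with these 4 directions was not counted.

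Other enzymes were lower in sorted cells. Mmp3, a metalloproteinase that cuts proteins of the extracellular matrix, was at 61.7, 143.6, 14.5 and 7.66 TPM on average in UN, UH, SN and SH cells, a log2 change of −1.93 in SN vs UN (limma adjusted p = 0.000168), −4.07 in SH vs UH (adjusted p = 3.89e-07) and 1.31 in UH vs UN (adjusted p = 0.00138). Pcsk5 and Pcsk6, proprotein convertases, were both lower in sorted cells, in normoxia (log2 −1.75 and −4.45) and in hypoxia (−1.63 and −3.25, limma adjusted p at most 0.000221 in all 4). Pcsk5 averaged 2.58 TPM in UN and 2.25 TPM in UH cells but 0.00601 TPM in SN and 0.0473 TPM in SH cells, so its log2 changes depend on the added 1. Furin, the convertase best known for these precursors, was abundant in every group (45.7 to 101.0 TPM on average) and its log2 changes, at most 0.68 in SN vs UN, stayed below the 2-fold threshold.

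Of 6 other receptors tested, 1 was higher and 1 was lower in UH vs UN, 2 were higher in SH vs SN and 1 was lower in SH vs UH. Lingo1, a partner of p75 in the Nogo receptor complex, was higher in both hypoxic groups, at 1.03 and 10.9 TPM in UN and UH cells (log2 2.58, limma adjusted p = 4.05e-06) and 0.138 and 2.10 TPM in SN and SH cells (1.43, adjusted p = 0.000461), and lower in SH vs UH (−1.94, adjusted p = 5e-05). Sorcs2, a sortilin relative that pairs with p75, was called higher in SH vs SN (1.58, limma adjusted p = 0.000575), and Sorl1, another relative of sortilin, lower in UH vs UN (−1.42, adjusted p = 0.000213). Among 10 p75 adaptors, Bex3 (NADE) was lower in UH vs UN, at 597.9 and 220.0 TPM (−1.44, limma adjusted p = 8.2e-07). Maged1 (NRAGE) was lower in sorted cells, at 428.5 and 138.8 TPM in UN and SN (−1.60, limma adjusted p = 6.57e-06) and 278.4 and 136.1 TPM in UH and SH cells (−1.03, adjusted p = 0.000142), the latter lost with quantile normalization (−0.97) or without SH replicate 3 or UH replicate 3 (both −0.96).

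Of 18 Trk signal transducers tested, 5 were lower in SN vs UN by limma, where 7.57% of all genes were called lower: Plcg2 (−1.65, adjusted p = 7.49e-07), Gab1 (−1.44, adjusted p = 0.000287), Dok5 (adjusted p = 0.00104), Shc2 (−1.23, adjusted p = 0.000155) and Sh2b2 (−1.12, adjusted p = 0.00985). The call of Dok5 was lost without UN replicate 1 and that of Sh2b2 without UN replicate 2 (−0.95) or 3 (−0.99), and quantile normalization ended those of Sh2b2 (−0.78) and Shc2 (−0.94). Dok5 was listed at 0 in all SN libraries and in SH replicates 1 and 3, so no fold is given, and averaged 1.56 TPM in UN and 12.8 TPM in UH cells. Sh2b2 was higher with hypoxia in unsorted (1.51, limma adjusted p = 0.00104) and sorted cells (1.97, adjusted p = 0.000215), and Gab1 was lower in UH vs UN (−1.23, adjusted p = 0.0005), a call lost with median-of-ratios scaling (−0.90) and quantile normalization (−0.93).

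Of 11 related TNF receptors, 2 were lower in UH vs UN by limma: Tnfrsf21 (−1.58, adjusted p = 0.000399) and Fas (−1.19, adjusted p = 1.32e-05), the latter below 2-fold with median-of-ratios scaling (−0.84) and quantile normalization (−0.91). Eda2r was higher in sorted cells in normoxia (1.43, limma adjusted p = 0.00598) and hypoxia (1.94, adjusted p = 0.000681), and Tnfrsf10b, a death receptor, in hypoxia (1.01, adjusted p = 0.000129), a call lost with median-of-ratios scaling (0.80) and quantile normalization (0.87), and without SH replicate 2 (0.92), UH replicate 1 (0.92) or UH replicate 2 (0.97).

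**Figure D3:**
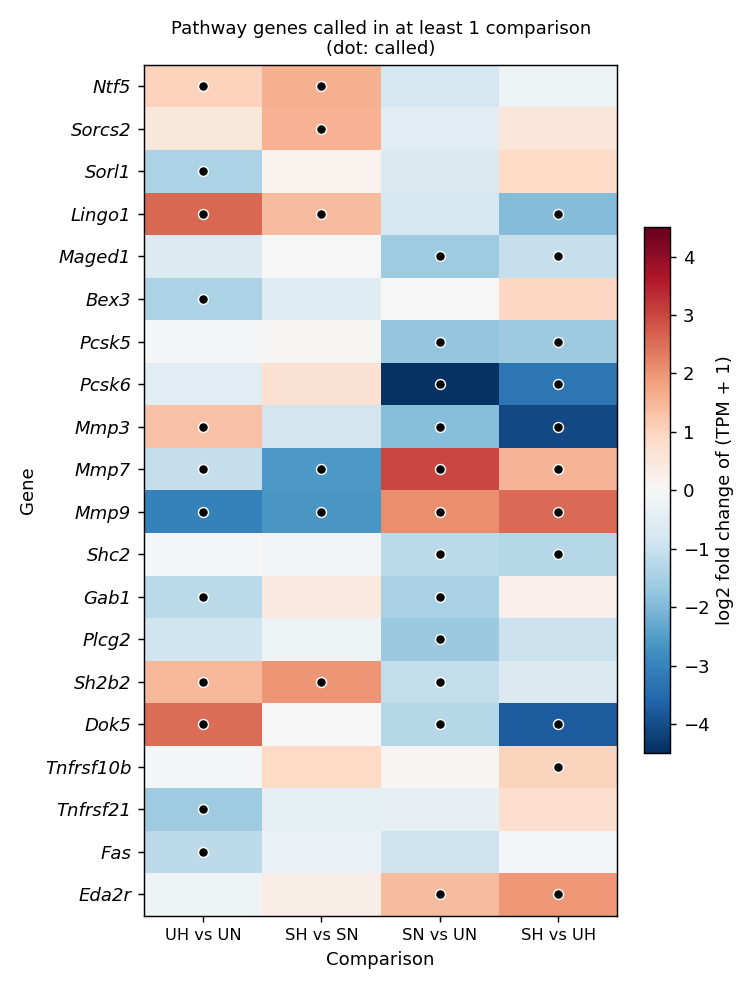
Log2 fold changes of TPM + 1 (color, blue lower and red higher) of the 20 pathway genes (y axis) called in at least 1 of the 4 comparisons (x axis), with a dot on each call. The values of Dok5 and Pcsk5 in comparisons with sorted cells, where both were at or near 0, depend on the added 1. Mmp7 and Mmp9 were called lower in both hypoxia comparisons and higher in both comparisons of sorted with unsorted cells, and Lingo1, Ntf5 and Sh2b2 were called higher in both hypoxia comparisons.

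Genes whose levels followed Ngfr over the 12 libraries were sought among 13566 tested genes that averaged 1 TPM or more, as a description with no test, since the libraries share 4 groups. The highest Pearson's r of log2(TPM + 1) was that of Chaf1b (0.988), a subunit of a chromatin assembly factor, at 42.9, 16.8, 95.8 and 26.3 TPM in UN, UH, SN and SH cells. Next came Acsl5 (0.983), a fatty acid activating enzyme, C1qbp (0.982), a mitochondrial matrix protein, Slco1a6 (0.982), an organic anion transporter, and Ier2 (0.974), an immediate early gene. Slco1a6 was nearest to Ngfr in level, at 5.76, 0.817, 17.3 and 2.37 TPM in the same order. The lowest r values were those of Sccpdh (−0.982), Ctsf (−0.980), a lysosomal protease, Mpp2 (−0.980), Hspa2 (−0.978), a heat shock protein, and Larp1b (−0.978). Sccpdh ran opposite to Ngfr, at 29.7, 92.9, 14.6 and 53.0 TPM in UN, UH, SN and SH cells. Within the pathway, r was 0.924 for Ltbr, a related TNF receptor, 0.917 for Mmp9, 0.886 for Mmp7, −0.957 for Ntf5 and −0.966 for Sh2b2, and among the other members 0.417 for Sort1, −0.31 for Ntrk3 and −0.42 for Bdnf.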

How the data were processed

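The authors sequenced 12 stranded, paired-end mRNA libraries of BN1-Tie2-EGFP cells. The authors processed the reads with nf-core/rnaseq 3.12.0 and deposited TPM per gene from its Salmon step, with mm10 as the genome in the submitters' processing notes. The annotation is not given in the sources used here. TPM are scaled to 1 sum per library and keep no depth, so no counting intervals or floors are given, and precision rests on 3 libraries per group.

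Groups were taken from the labels. Identifiers were matched to GENCODE M21 (45143 found, 98.8%), and promoter windows came from RefSeq. Bex3 is listed under an older symbol and was found by identifier. Values of log2(TPM + 1) for 18909 genes that averaged 0.1 TPM or more were fitted in R 4.3.3 with limma 3.58.1 (4 group means, all 12 libraries, empirical Bayes with a trend). The fit was tested on simulated data. A call needed an adjusted p (Benjamini-Hochberg over all genes tested) under 0.05 and an absolute log2 fold change above 1, since the study used a fold above 2 in a count model that TPM do not allow. Stranded counting by the authors was not stated.

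Some genes of the pathway are not reported here. Members and gene lists were chosen with earlier results of these data known. Genes named were the members, in each pathway comparison up to 6 called genes per direction with the largest change, the 5 most and 5 least like Ngfr, and Tek. Other genes named (Furin, Ltbr, Spp1, Krt19, Krt7, Alb, Afp, Krt8, Foxa2, Hnf4a, Krt18, Epcam, Col1a1, Col3a1, Acta2, Des, Pdgfra, Pdgfrb, Dcn, Lrat, Lum, Sox10, Mbp, Car9) were chosen after their values were seen. The alternatives were a pseudocount of 0.1, other filters, scalings and moderation, a replicate block, fits of single comparisons, and leaving out each library. Python 3.11.15, pandas 2.3.3 and matplotlib 3.10.9 made the tables and figures.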

Additional observations from a re-analysis of the deposited data

Results flagged for a closer look

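Bdnf stood out because every UH library was above every UN library and every SH library was below every SN library in TPM. The sorted part was a log2 change of −0.39, under 2-fold. It rested on a narrow gap between SN replicate 3 and SH replicate 3, whose order median-of-ratios scaling reverses. The difference of the log2 changes of Bdnf, sorted minus unsorted, was −1.21, and it was not tested.

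For 7 pathway genes limma called a difference in the response to hypoxia between sorted and unsorted cells, in a test of the difference itself, which called 10.3% of all genes. The difference of log2 changes, sorted minus unsorted, was −2.47 for Dok5 (limma adjusted p = 0.000424), whose sorted libraries were at or near 0, so that this value depends on the added 1. With sorted cells near 0 it largely repeats the UH vs UN change of Dok5 (2.50) with the sign turned. For Dok5 the test therefore cannot tell whether the responses differed. The difference was −2.14 for Mmp3 (limma adjusted p = 0.0022), which was 2.33-fold higher in UH than in UN cells and at 7.66 TPM in SH against 14.5 TPM in SN cells. It was −1.50 for Mmp7 (limma adjusted p = 0.0155), a call lost with a pseudocount of 0.1 (−0.85). For Gab1 it was 1.66 (limma adjusted p = 0.00273) and for Sorl1 1.57 (adjusted p = 0.00438), both lower with hypoxia in unsorted cells, with uncalled log2 changes of 0.43 and 0.15 in sorted cells. For Tnfrsf21 it was 1.16 (limma adjusted p = 0.0435) and for Lingo1 −1.16 (adjusted p = 0.0269). The call of Tnfrsf21 was lost in 10 of the 12 fits that left out a library. Among these were the fits without UN replicate 2 (0.99, limma adjusted p = 0.108) and without SH replicate 3 (1.03, adjusted p = 0.0903). It was also lost with median-of-ratios scaling (0.83, limma adjusted p = 0.099). The call of Lingo1 was lost in 6 of the 12, among them without UN replicate 1 (−0.89) or SH replicate 3 (−1.01). A pseudocount of 0.1 ended it as well (−0.24, limma adjusted p = 0.815). In TPM Lingo1 was 10.6-fold higher in UH than in UN and 15.1-fold higher in SH than in SN cells, so the sign of its difference depends on the added 1. Without UN replicate 1 the test called 11 pathway genes and not 7.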

How the results depend on the processing

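With a pseudocount of 0.1, 4882, 4126, 3392 and 4360 genes were called in UH vs UN, SH vs SN, SN vs UN and SH vs UH, against 3254, 2357, 2037 and 2459, and 10 pathway genes against 6 in SH vs SN. Ngfr was then at −3.25, −3.55, 2.07 and 1.77 in these comparisons, with a difference of hypoxia responses of −0.30, and Ntrk3 at −3.04 (SN vs UN) and −2.46 (SH vs UH). Median-of-ratios scaling moved the median of all genes in UH vs UN from −0.19 to 0 and the calls there from 1032 higher and 2222 lower to 1566 and 1221. It gave 1022 higher and 1326 lower in SH vs UH (against 1447 and 1012) and 903 and 783 in the difference (against 1527 and 412). Quantile normalization gave 1445 and 1343 in UH vs UN, 840 and 1136 in SN vs UN (against 606 and 1431), 1088 and 1239 in SH vs UH, and 772 and 745 in the difference. Under median-of-ratios scaling and quantile normalization in turn, Bdnf was at 1.16 and 1.18 for UH vs UN, −1.73 and −1.72 for SH vs UH, and −1.53 and −1.57 in the difference, Ntrk3 at −0.44 in both in UH vs UN and 0.31 and −0.0363 in the difference, and Sort1 at −1.53 and −1.57 in UH vs UN and 0.90 and 0.97 in the difference. Quantile normalization also put Ngfr at −1.37 in the difference, Bdnf at −0.15 in SN vs UN, and Ntrk3 at −0.47 in SH vs SN and −2.05 in SN vs UN. The causes were not tested. Leaving out single libraries gave 5 to 11 pathway calls in the difference (11 without UN replicate 1), and Ntrk3 in SH vs SN (−0.14) was 0.0062 without SH replicate 2. Of 377 pathway gene calls under the other settings 360 were kept, and 548 of 576 with a library left out. No call changed direction in either. The fit of single comparisons has no value for the difference.

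Same-numbered replicates did not pair: 1 of 12 correlations exceeded 0.1 (−0.0631 to 0.141). In 4 of 24 checks, each of a library in a comparison, the library correlated best with its own number. With the replicate block, 3256, 2357, 2033, 2467 and 1922 genes were called (difference last, 1939 without the block).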
